A study of Mus musculus with 3 samples.

Results

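The matrix metalloproteinases and their tissue inhibitors described here are 10 genes, Mmp2, Mmp3, Mmp11, Mmp14, Mmp16, Mmp19, Mmp23, Timp1, Timp2 and Timp3, taken by symbol from the 27998 genes that the count tables list. Each symbol matched 1 row. The genes were picked by family and symbol, with earlier results of these data known. Matrix metalloproteinases (MMPs) are zinc-dependent proteases that are made as inactive proenzymes and cut collagens, basement membrane proteins and proteoglycans once their propeptide is removed. The tissue inhibitors of metalloproteinases (TIMPs) bind the active site and hold this cutting in check. In the dermis most of these enzymes are known as products of fibroblasts, and they are studied in skin growth, the hair cycle and wound repair.

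The cells came from dorsal skin of C57BL/6 mice at 3 ages, labelled neonatal, 3 weeks and 2 months. Single cells were released from minced skin with DNase1 and collagenase D, and droplet-based 3' libraries were sequenced, 1 library per age. Nothing in the labels says how many animals went into a library, so the ages have no replicate, and differences between ages are given as measured ratios with counting error and no test. Unique molecular identifiers (UMIs) each stand for a counted molecule. Levels are CPM, the UMIs of a gene per 1000000 UMIs of the same cells, with exact Poisson 95% intervals that cover counting error only. A gene was called higher or lower between ages where its CPM differed at least 2-fold and reached 10 CPM in 1 of the libraries compared.

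After filtering, 7436 neonatal, 8689 3-week and 8984 2-month cells remained, with median depths of 8685, 11142.5 and 8529.5 UMIs per barcode before doublets were removed. Classes were named from marker genes fixed without the 10 members, which were also kept out of the clustering. Fibroblast-like cells numbered 6172 in the neonatal, 5402 in the 3-week and 4778 in the 2-month library, and they carried the fibroblast markers Pdgfra, Dcn, Lum, Col1a1, Col1a2, Col3a1 and Dpt that named them. The fibroblast-like cells of the 3 ages lay largely in different clusters: clusters 0, 4, 6, 13 and 18 held most of the neonatal ones, clusters 1, 3, 5, 7 and 20 most of the 3-week ones, and clusters 2, 3, 7 and 10 most of the 2-month ones. Between 23 and 31 barcodes were shared by any pair of libraries. Sex makeup differed between the neonatal library and the later ones: Xist stood at 622, 0.0854 and 0.0553 CPM over all cells of the neonatal, 3-week and 2-month libraries and the Y-linked Ddx3y at 34.5, 89.8 and 103 CPM, so age and sex makeup cannot be told apart where the neonatal library is compared with a later one.

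The 10 genes lie on 7 chromosomes, given here in the mouse build GRCm38 (mm10). Mmp2 (ENSMUSG00000031740), which encodes gelatinase A, spans chr8:92827291-92853420 on the plus strand, and Mmp3 (ENSMUSG00000043613), which encodes stromelysin 1, spans chr9:7445822-7455975 on the plus strand. Mmp14 (ENSMUSG00000000957, chr14:54431612-54445364, plus) and Mmp16 (ENSMUSG00000028226, chr4:17852893-18119145, plus) encode membrane-type enzymes. Mmp11 (ENSMUSG00000000901, chr10:75923222-75936496, minus) encodes stromelysin 3, Mmp19 (ENSMUSG00000025355, chr10:128790910-128800824, plus) a secreted enzyme, and Mmp23 (ENSMUSG00000029061, chr4:155650655-155653384, minus) an enzyme with an amino-terminal membrane anchor. Timp1 (ENSMUSG00000001131) lies at chrX:20870166-20874735 on the plus strand, Timp2 (ENSMUSG00000017466) at chr11:118301069-118355740 on the minus strand and Timp3 (ENSMUSG00000020044) at chr10:86300372-86349506 on the plus strand. Several spans overlap other annotated genes: Timp1 overlaps Syn1, Timp3 overlaps Syn3, Timp2 overlaps Cep295nl, Mmp11 overlaps Chchd10, Mmp16 overlaps the pseudogene Gm11860, and Mmp19 overlaps Tmem198b and the antisense gene Gm47093. How reads in those overlaps were assigned is not given in the sources used here.

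The stretch of 250 bases upstream of Mmp3 is shown because Mmp3 differed most between ages, and because AP-1, the Fos and Jun dimer, is a known regulator of stromelysin genes. RefSeq promoter windows (GRCm38.p6) were matched for 7 of the 10 genes, Mmp3, Mmp11, Mmp14, Mmp23, Timp1, Timp2 and Timp3, with a second window for Mmp23. Mmp2, Mmp16 and Mmp19 had no entry. The window of Timp2, which was also higher at each later age, is shown beside that of Mmp3. Each window precedes a RefSeq start, which need not be the start of the gene span given above. The Timp2 and Mmp11 windows lie inside those spans, and the Timp3 window and an Mmp23 window overlap theirs. Capitals mark a match to the AP-1 motif TGANTCA, searched on both strands.
Mmp3, chr9:7445572-7445821, plus strand: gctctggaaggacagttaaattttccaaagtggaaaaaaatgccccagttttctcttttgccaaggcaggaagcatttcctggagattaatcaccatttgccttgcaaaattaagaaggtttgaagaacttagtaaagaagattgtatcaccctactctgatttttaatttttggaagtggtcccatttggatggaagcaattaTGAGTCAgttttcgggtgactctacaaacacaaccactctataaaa
Timp2, chr11:118355412-118355661, minus strand: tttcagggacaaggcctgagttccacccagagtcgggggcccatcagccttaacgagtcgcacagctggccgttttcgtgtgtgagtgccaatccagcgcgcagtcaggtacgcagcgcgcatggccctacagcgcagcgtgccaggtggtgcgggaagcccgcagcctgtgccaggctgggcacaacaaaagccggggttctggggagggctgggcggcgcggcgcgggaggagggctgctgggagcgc
The match in Mmp3 began 46 bases before the annotated start, and a TATAAA began 7 bases before it. None of the other 7 windows held TGANTCA, a motif found in 6.75% of the 32851 windows of that length in the table, and TATAAA was found in 12.4% of them. The Sp1 motif GGGCGG was present in the windows of Mmp11, Mmp14, Timp1, Timp2 and Timp3 and in 32.7% of all windows. A match describes the letters and not a bound site.

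In fibroblast-like cells the gelatinase and the inhibitors Timp2 and Timp3 stood higher at each later age, Mmp3 showed the largest ratio of the 10, and Mmp11 stood highest in the neonatal library. Mmp2 had 537 CPM (95% interval 531 to 543) in neonatal, 905 CPM (897 to 912) in 3-week and 1559 CPM (1549 to 1570) in 2-month fibroblast-like cells. Mmp3 had 4.72 CPM (4.17 to 5.33) in neonatal, 172 CPM (169 to 175) in 3-week and 555 CPM (549 to 561) in 2-month cells. For both genes the 3 intervals did not overlap and the order followed age. Stromelysin 1 cuts proteoglycans, laminin and fibronectin and can activate other pro-MMPs, whereas gelatinase A cuts basement membrane collagen and denatured collagen.

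Mmp11 ran the other way over the first interval, with 52.6 CPM (50.7 to 54.5) in neonatal, 11.02 CPM (10.2 to 11.8) in 3-week and 17.4 CPM (16.3 to 18.6) in 2-month fibroblast-like cells. Its product, stromelysin 3, is activated inside the cell by furin and is known from tissue remodelling. Mmp16 stood at 26.5 CPM (25.2 to 27.9) in neonatal and 28.2 CPM (26.9 to 29.5) in 3-week cells, which overlap in their intervals, and at 11.4 CPM (10.5 to 12.4) in 2-month cells. Mmp19 was lowest in neonatal cells at 14.6 CPM (13.6 to 15.6), highest in 3-week cells at 36.6 CPM (35.1 to 38.0) and between them in 2-month cells at 25.1 CPM (23.8 to 26.5).

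Mmp14 and Mmp23 differed by less than 2-fold in all 3 comparisons of ages. Mmp14 encodes MT1-MMP, the membrane enzyme that cuts fibrillar collagen and activates pro-MMP2 together with TIMP2. It had 286 CPM (282 to 291) in neonatal, 272 CPM (268 to 276) in 3-week and 368 CPM (363 to 374) in 2-month fibroblast-like cells. Mmp23 had 203 CPM (199.7 to 207) in neonatal, 328 CPM (323 to 332) in 3-week and 246 CPM (242 to 250.3) in 2-month cells.

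Among the inhibitors, Timp2, which blocks MMP2 and at the same time takes part in its activation, had 489 CPM (483 to 495) in neonatal, 1188 CPM (1180 to 1196) in 3-week and 2938 CPM (2923 to 2953) in 2-month fibroblast-like cells. Timp3, which binds to the matrix and also inhibits ADAM and ADAMTS proteases, had 75.9 CPM (73.6 to 78.2) in neonatal, 230 CPM (226 to 233) in 3-week and 329 CPM (324 to 334) in 2-month cells. Timp1, an inhibitor that is weak against several membrane-type MMPs, had its maximum in the middle library, with 38.1 CPM (36.5 to 39.8) in neonatal, 88.6 CPM (86.3 to 90.9) in 3-week and 26.4 CPM (25.0 to 27.8) in 2-month cells. Timp1 is X-linked, and the part of sex makeup in its neonatal comparisons was not tested.

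**Figure D1:**
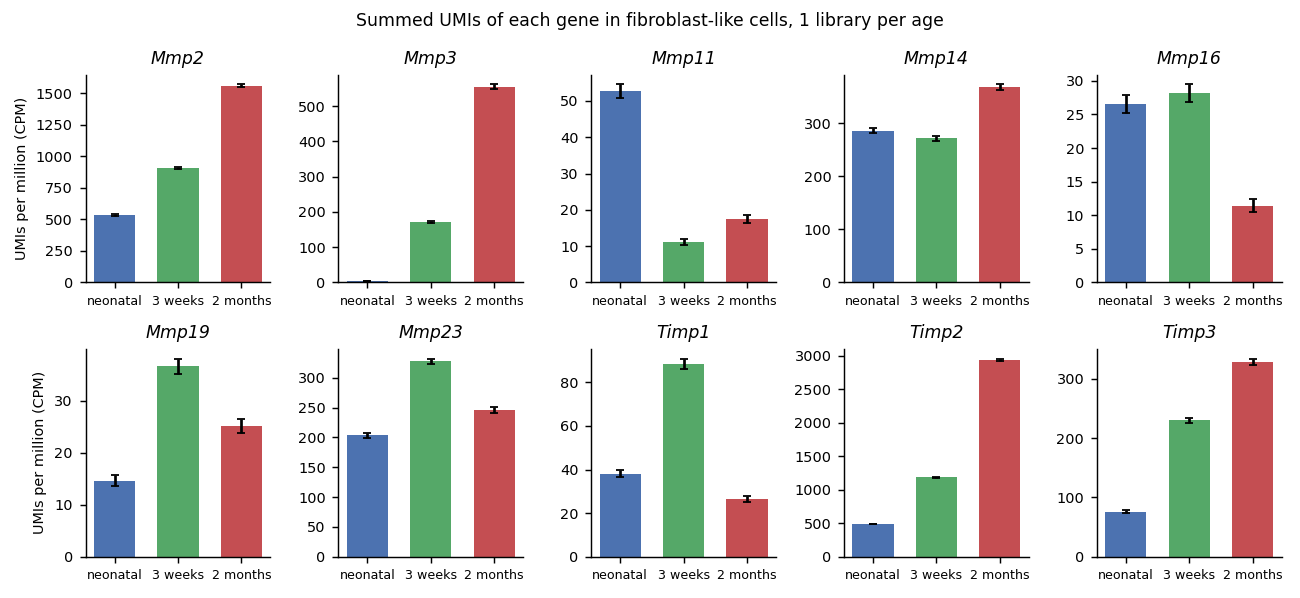
CPM of each of the 10 genes in fibroblast-like cells (y axis, from 0, a separate scale for each gene) at the 3 ages (x axis), with exact Poisson 95% intervals as error bars and 1 library per bar. Mmp2, Mmp3, Timp2 and Timp3 step up at each later age, Mmp11 is highest in the neonatal bar, and Timp1 peaks at 3 weeks with 88.6 CPM.

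In 3-week against neonatal fibroblast-like cells, 5 of the 10 genes were higher (Mmp3, Mmp19, Timp1, Timp2 and Timp3) and 1 was lower (Mmp11). Of the 8534 genes that reached 10 CPM, 8.24% were higher and 11.7% lower by the same rule. Mmp3 was 36.5-fold higher in 3-week cells, Timp3 3.03-fold, Mmp19 2.51-fold, Timp2 2.43-fold and Timp1 2.32-fold higher. The neonatal Mmp3 level, to which each neonatal ratio of Mmp3 refers, rests on 262 UMIs in 114 of 6172 cells. Of these UMIs 27.9% came from 5 cells, a spread that the Poisson interval does not cover. Mmp11 was 4.77-fold lower. Mmp2, Mmp14, Mmp16 and Mmp23 were within 2-fold. The median log2 ratio of the 10 genes was 0.99, beside -0.21 for all measured genes.

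In 2-month against 3-week fibroblast-like cells, Mmp3 was 3.22-fold and Timp2 2.47-fold higher, and Timp1 was 3.36-fold and Mmp16 2.46-fold lower. Those 2 higher and 2 lower genes stand beside 3.45% of 8018 genes higher and 3.17% lower, with Mmp2, Mmp11, Mmp14, Mmp19, Mmp23 and Timp3 within 2-fold. In 2-month against neonatal cells, 4 of the 10 were higher, Mmp3 by 117.5-fold, Timp2 by 6.01-fold, Timp3 by 4.33-fold and Mmp2 by 2.91-fold, where 10.8% of 8667 genes were higher. Mmp11 and Mmp16 were lower, by 3.01-fold and 2.32-fold, where 17.1% of genes were lower, and Mmp14, Mmp19, Mmp23 and Timp1 were within 2-fold. With TMM scaling (trimmed mean of M values, which aligns the bulk of genes between profiles), 11.7% of genes were higher and 7.07% lower at 3 weeks against neonatal, and 15.01% higher and 9.94% lower at 2 months against neonatal. With mitochondrial, ribosomal-protein and haemoglobin genes left out of the total, 6.13% were higher and 20.2% lower at 3 weeks, and 8.72% higher and 26.6% lower at 2 months, both against neonatal. The 3 comparisons share libraries and are not independent of each other.

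Those lower calls were the least stable. Mmp16 at 2 months against neonatal stood at a log2 ratio of -0.94 with TMM scaling and at -0.83 with at most 5% mitochondrial UMIs, both short of 2-fold. When single cells were gated by marker UMIs in place of clusters, Mmp11 stood at -0.94 and Mmp16 at -0.63, so that neither was called. TMM scaling moved the median log2 ratio of all measured genes to 0.04 at 3 weeks against neonatal and to 0.01 at 2 months against neonatal, where CPM gave -0.21 and -0.29. Genes of the early response to tissue dissociation summed to 20375, 21979 and 25962 CPM in neonatal, 3-week and 2-month fibroblast-like cells. Of 12 such genes, 1 was higher and 1 lower at 3 weeks against neonatal, none was past 2-fold at 2 months against 3 weeks, and 4 were higher at 2 months against neonatal, among them Fos at 3715 against 1320 CPM. The part of these genes in the Mmp3 ratio was not tested.

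Summed over the 7 MMP genes, fibroblast-like cells held 1125 CPM in the neonatal, 1752 CPM in the 3-week and 2783 CPM in the 2-month library. The 3 TIMP genes summed to 603, 1507 and 3293 CPM at the same ages. The ratio of the MMP sum to the TIMP sum was 1.87 in neonatal, 1.16 in 3-week and 0.845 in 2-month cells. Because 3' tag counts differ between genes in how well they are captured, this ratio compares ages and says nothing of the balance of the proteins. Over subclusters of at least 50 cells the ratio ran between 0.770 and 2.80 (median 1.78, 15 subclusters) in the neonatal library, between 0.441 and 1.98 (median 1.32, 16 subclusters) at 3 weeks, and between 0.317 and 1.57 (median 0.894, 15 subclusters) at 2 months. It was above 1 in 14 neonatal, 13 3-week and 4 2-month subclusters, so the ages overlap in range while the median was lower at each later age.

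**Figure D2:**
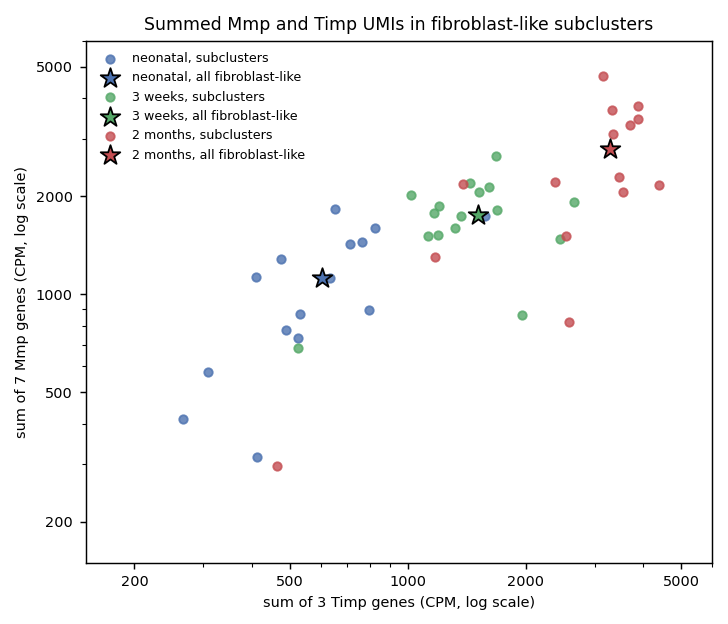
Sum of the 7 MMP genes (y axis, CPM, log scale) against the sum of the 3 TIMP genes (x axis, CPM, log scale) in fibroblast-like cells; each dot is a subcluster of at least 50 cells and each star all fibroblast-like cells of 1 library. The stars move right and up with age, and the TIMP sum grows more, at 603, 1507 and 3293 CPM.

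The shares of cells with a UMI of Mmp2, Mmp3 and Timp2 were higher at each later age once each cell was thinned to 1500 UMIs, which left out 54 neonatal, 17 3-week and 110 2-month fibroblast-like cells. Mmp3 was seen in 0.36% of neonatal (exact 95% interval 0.225% to 0.544%), 15.5% of 3-week (14.5% to 16.4%) and 32.8% of 2-month cells (31.5% to 34.2%), and without thinning in 1.85%, 42.5% and 53.8%. Timp2 was seen in 45.8%, 78.0% and 92.4% of thinned neonatal, 3-week and 2-month cells, and Mmp2 in 45.3%, 66.3% and 81.1%. Free RNA can give such counts in cells that do not make a gene. In T/innate lymphoid-like cells, taken here as a class that should lack these products, Mmp2 was seen after thinning in 2.17% of 138 3-week and 3.05% of 295 2-month cells, Timp2 in 2.17% and 5.08%, and Mmp3 in 0 and 1.36%. Summed Col1a1, Col1a2, Col3a1, Dcn and Lum stood there at 1.70% and 0.697% of their fibroblast-like level at these ages. Those were the lowest values of the named classes, so the shares are a low estimate for other classes. A count of 0 in the 138 3-week cells allows a share of up to 2.17%. Median depths were 12033 and 9929.5 UMIs in 3-week and 2-month fibroblast-like cells and 2632.5 and 2193.5 UMIs in T/innate lymphoid-like cells.

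Detection of Mmp2 and Timp2 in the same thinned cells varied with age. Timp2 was seen in 50.2% of neonatal cells with an Mmp2 UMI against 42.2% of those without, in 80.7% against 72.6% at 3 weeks, and in 94.7% against 82.5% at 2 months. For Mmp14, whose product activates pro-MMP2, Mmp2 was seen in 47.6% of neonatal cells with an Mmp14 UMI against 44.1% of those without, in 66.6% against 66.1% at 3 weeks and in 83.8% against 79.4% at 2 months. Timp1 was seen in 15.4% of 3-week cells with an Mmp3 UMI against 8.96% of those without. At 2 months it was seen in 5.29% against 3.22%.

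Fibroblast states, named from subclusters within each library, differed in which of the 10 genes they carried. States of at least 50 cells were interstitial progenitor-like (161 neonatal, 371 3-week and 884 2-month cells), reticular-like (269, 764 and 290), dermal sheath-like (687 neonatal and 330 2-month), dermal papilla-like (333 neonatal and 69 2-month), preadipocyte-like (360 neonatal and 202 3-week), cycling-like (381 neonatal and 256 3-week), follicle-associated-like (338 3-week and 547 2-month) and nerve-associated-like (81 3-week and 139 2-month). The remaining 3936 neonatal, 3390 3-week and 2503 2-month fibroblast-like cells carried no state name. Members were not among the genes that defined these states.

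Mmp2 was lowest in dermal papilla-like cells, the signalling cells at the base of the hair follicle, at 55.6 CPM in neonatal and 117 CPM in 2-month cells. Among the named states it was highest in interstitial progenitor-like cells of the neonatal library, at 974 CPM, and in nerve-associated-like cells at 3 weeks and 2 months, at 1742 and 1822 CPM. The dermal sheath-like cells, named for the sheath around the follicle, lay between, at 214 CPM in neonatal and 564 CPM in 2-month cells. Of the 687 neonatal ones, 406 lay in a subcluster that held 3 of 6 state markers and was led by Hes5, Rarres1 and Galnt9. The other 281 lay in one led by Actg2, Nrgn and Acta2. The 330 2-month ones held 5 of 6 markers and were led by Lrrc15, A830036E02Rik and Stmn2. The name is thus weak for most neonatal cells of the dermal sheath-like state. Dermal papilla-like cells also differed in leading genes between ages. Serpine2, Sox2 and Scube3 led the 333 neonatal ones (7 of 7 markers), and Prlr, Slc26a7 and Pappa2 the 69 2-month ones (6 of 7). A 3-week subcluster of 300 cells, led by Col23a1, Prlr and Lef1, was left unnamed, with dermal papilla markers among its leading genes. The part of these differences in the levels by age was not tested.

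In neonatal states Mmp3 was at or near 0. No Mmp3 UMI was counted in neonatal cycling-like, dermal sheath-like or dermal papilla-like cells, and 8 of 15 neonatal subclusters held none. The neonatal subcluster with the highest Mmp3 level, led by Cxcl2, Nr4a2 and Lgr5, reached 18.3 CPM. At 3 weeks Mmp3 ran between 2.57 CPM (1 UMI) in nerve-associated-like cells and 779 CPM in a reticular-like subcluster led by Inmt, C2 and C4b (median 111 CPM over 16 subclusters). At 2 months it ran between 11.9 CPM in a follicle-associated-like subcluster and 1361 CPM in an unnamed one led by Igfbp2, F13a1 and Stc1 (median 222 CPM over 15 subclusters). That last subcluster also had the highest Mmp2 of its library, at 2554 CPM. Dermal papilla-like and follicle-associated-like cells had 19.9 and 19.1 CPM of Mmp3 at 2 months, and dermal sheath-like cells had 70.1 CPM. Keratinocyte-like and T/innate lymphoid-like cells held 8.98 and 4.78 CPM of Mmp3 at 3 weeks and 14.4 and 9.71 CPM at 2 months, so values near these, such as that of 3-week nerve-associated-like cells, are not read as expression.

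Among fibroblast-like subclusters, Mmp11 was highest in unnamed or dermal sheath-like ones. Its neonatal maximum, 141 CPM, lay in an unnamed subcluster led by Sost, Dkk1 and Aqp1, and its 3-week maximum, 60.6 CPM, in one led by Col23a1, Prlr and Lef1. Cells left without a class name stand outside these subclusters. They held Mmp11 at 114%, 744% and 15.3% of its fibroblast-like level in the neonatal, 3-week and 2-month libraries (145, 104 and 5 UMIs). These cells numbered 177, 302 and 654. Of them, 168 neonatal and 34 3-week cells lay in cluster 28, led by Col11a1, Acan and Acta2. Dermal sheath-like cells had 62.4 CPM in the neonatal and 122 CPM in the 2-month library, so that here the 2-month value was the higher one, unlike in fibroblast-like cells as a whole. The subclusters that hold this state differ in leading genes between the ages, as given above, and their part in this difference was not tested. Interstitial progenitor-like cells had 13.1, 4.24 and 6.04 CPM at the 3 ages in order. Mmp16, a membrane-type enzyme, peaked at 168 CPM in a 3-week subcluster led by Id1, Slit2 and Nog and reached 131 CPM in another, smaller one led by Hapln1, Chrm2 and Tnc. It was low in preadipocyte-like cells, at 5.25 CPM in neonatal and 2.66 CPM in 3-week cells.

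Mmp19 was the member with its maximum in the preadipocyte-like state, at 47.1 CPM in neonatal and 81.9 CPM in 3-week cells, the highest of 15 and of 16 subclusters. Mmp23 was highest in interstitial progenitor-like cells at the neonatal age, at 484 CPM, and lowest in dermal papilla-like cells, at 15.3 CPM in neonatal and 16.2 CPM in 2-month cells. Mmp14 was found in all subclusters of at least 50 cells, between 163 and 576 CPM in the neonatal, 169 and 371 CPM in the 3-week and 110.1 and 517 CPM in the 2-month library.

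Timp3 was high in interstitial progenitor-like cells at each age, with 321 CPM in neonatal, 587 CPM in 3-week and 723 CPM in 2-month cells, and its highest level, 1047 CPM, lay in a 3-week reticular-like subcluster led by Thbs4, Meox1 and Col8a1. Timp2 was highest of the neonatal and 3-week subclusters in interstitial progenitor-like cells, at 1144 and 1996 CPM. At 2 months the same state had 3438 CPM, and dermal papilla-like cells had 333 CPM. Timp1 peaked in a neonatal subcluster led by Ccl11, Col18a1 and Vtn, at 206 CPM, and in reticular-like cells later, at 150.01 CPM at 3 weeks and 102 CPM at 2 months.

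Within states of the same name the ages differed in the same way for Mmp3. In reticular-like cells it had 2.92 CPM in neonatal, 451 CPM in 3-week and 550 CPM in 2-month cells, and in interstitial progenitor-like cells 2.71, 81.6 and 181 CPM in the same order of ages. In preadipocyte-like cells it had 270 CPM at 3 weeks against 5.66 CPM in the neonatal library. The reticular-like subclusters differed between ages. The neonatal one held 6 of 6 markers and was led by Sfrp4, Cilp and Acta1. At 3 weeks 438 cells held 3 of 6 (led by Inmt, C2 and C4b) and 326 held 6 of 6 (led by Thbs4, Meox1 and Col8a1). The 2-month one held 4 of 6 and was led by Cxcl14, Agt and Rbp4. Their part in the reticular-like differences was not tested. In 3-week against neonatal reticular-like cells, 5 genes were higher (Mmp3, Mmp19, Timp1, Timp2 and Timp3), where 12.3% of 8068 genes were higher, and 2 were lower (Mmp11 and Mmp16), where 5.68% were lower. In 2-month against neonatal interstitial progenitor-like cells, 4 genes were higher (Mmp3, Mmp19, Timp2 and Timp3) and 3 were lower (Mmp11, Mmp16 and Timp1), where 12.1% of 8039 genes were higher and 8.31% lower. Timp1 in that state had 109 CPM in neonatal, 68.0 CPM in 3-week and 13.4 CPM in 2-month cells, so it lacked the 3-week maximum seen over all fibroblast-like cells.

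The interstitial progenitor-like cells were tested against all other fibroblast-like cells with edgeR's quasi-likelihood test, with the library as a block and Benjamini-Hochberg adjustment over 13349 genes. On simulated counts the tests used here made a larger share of false calls than the nominal one, so calls near the threshold of 0.05 are weak. Timp3 was higher in interstitial progenitor-like cells, by a log2 fold change of 1.80 ± 0.29 (SE, 3 libraries, adjusted p = 0.0170, edgeR), 1 gene of 10 where 6.41% of all genes were higher. Mmp11 (-1.73 ± 0.19, adjusted p = 0.00656), Mmp16 (-2.26 ± 0.40, adjusted p = 0.0220), Mmp3 (-1.37 ± 0.29, adjusted p = 0.0384) and Mmp19 (-0.76 ± 0.17, adjusted p = 0.0430) were lower, where 7.66% of genes were lower. Timp2 (0.82 ± 0.36, adjusted p = 0.204) and Mmp23 (0.83 ± 0.28, adjusted p = 0.127) had positive values in edgeR that did not pass, as did Mmp2 at 0.38 ± 0.35 (adjusted p = 0.536). Mmp14 and Timp1 did not pass either. Leaving out the 3-week library ended the calls of Mmp3, Mmp16, Mmp19 and Timp3, with adjusted p between 0.0585 and 0.373 in edgeR. Leaving out the 2-month library ended those of Mmp3 and Mmp19 (adjusted p = 0.0565 and 0.101), and leaving out the neonatal one that of Mmp19 (adjusted p = 0.0536, edgeR).

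Across cell classes, all members but Timp3 (Mmp2, Mmp3, Mmp11, Mmp14, Mmp16, Mmp19, Mmp23, Timp1 and Timp2, 9 of 10) were higher in fibroblast-like than in keratinocyte-like cells, which build epidermis and hair follicle, in a comparison where 27.3% of 14246 genes were higher and 20.7% lower. The members were chosen with earlier results of these data known. All 10 reached 10 CPM in fibroblast-like cells of at least 1 library, as did 1 of 17 further family genes. Counts of members in the class contrasts therefore describe the chosen genes and not the whole family. Log2 fold changes of the 9 ran between 3.34 ± 0.31 for Mmp14 (adjusted p = 0.00168, edgeR, library as a block) and 5.69 ± 0.41 for Mmp23 (adjusted p = 0.000868). Timp3 was the exception, at 0.19 ± 0.43 (adjusted p = 0.738, edgeR). Its levels in the neonatal, 3-week and 2-month libraries were 75.9, 230 and 329 CPM in fibroblast-like cells, against 155, 154 and 258 CPM in keratinocyte-like cells. Without the neonatal library Timp3 was at 0.71 with an adjusted p of 0.0156 in edgeR, and its value turned to -0.16 without the 3-week and -0.08 without the 2-month library, neither past the threshold.

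Keratinocyte-like cells also carried low levels of fibroblast products. A panel of Col1a1, Col1a2, Col3a1, Dcn and Lum stood there at 1.91%, 4.48% and 1.73% of its fibroblast-like level in the neonatal, 3-week and 2-month libraries. Mmp2 stood at 6.0%, 7.23% and 3.99% of its fibroblast-like level in the same libraries and Mmp14 at 13.1%, 14.95% and 7.46%. Timp3 stood at 205%, 66.9% and 78.4%.

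In fibroblast-like against mural-like cells, a contractile class, Mmp2 (4.17 ± 0.50, adjusted p = 0.0117), Mmp19 (3.46 ± 0.32, adjusted p = 0.00757), Mmp23 (3.41 ± 0.42, adjusted p = 0.0121) and Mmp16 (2.06 ± 0.35, adjusted p = 0.0240) were higher in edgeR, 4 genes where 6.82% of 13651 were higher and 6.66% lower. Mural-like cells came from cluster 14, led by Rgs5, Tinagl1 and Gm13889, and cluster 35, led by Actg2, Cnn1 and Des, which rested on 3 of 8 mural markers and held 125 of the 321 3-week, 16 of the 232 2-month and none of the 191 neonatal cells. Mmp3, Mmp11, Mmp14, Timp1, Timp2 and Timp3 did not pass, with Timp3 at -1.92 ± 0.78 (adjusted p = 0.170, edgeR). Timp3 had 75.9, 230 and 329 CPM in fibroblast-like cells of the 3 ages in order, against 1340, 508 and 799 CPM in mural-like cells, lower in each library. Without the 2-month library none of the 4 calls held in edgeR, with adjusted p between 0.0527 and 0.0986. Without the neonatal library 8 genes were higher and Timp3 was lower. Without the 3-week library Mmp3 passed and Mmp16 did not.

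Mural-like Mmp3 rested on few cells. In the 3-week library 270 UMIs came from 12 of 321 mural-like cells, 97.0% of them from 5 cells and 160 from a single cell. In the 2-month library 38 UMIs came from 3 of 232 cells, and in the neonatal library no Mmp3 UMI was counted in 191 cells. Mural-like Timp3, in contrast, was seen in 92.1% of neonatal, 87.2% of 3-week and 92.2% of 2-month cells, with no more than 13.2% of its UMIs in the 5 richest cells of a library.

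Against macrophage-like cells 8 genes (Mmp2, Mmp3, Mmp11, Mmp14, Mmp16, Mmp23, Timp1 and Timp3) were higher in fibroblast-like cells, where 18.2% of 13761 genes were higher and 14% lower, with log2 fold changes between 3.23 ± 0.54 for Timp1 (adjusted p = 0.00401, edgeR) and 4.66 ± 0.65 for Mmp3 (adjusted p = 0.00177). Timp2 (1.03 ± 0.49, adjusted p = 0.153) and Mmp19 (0.87 ± 0.34, adjusted p = 0.0908) did not pass in edgeR. Timp2 was at 489 CPM in fibroblast-like against 485 CPM in macrophage-like cells of the neonatal library, intervals that overlap, then at 1188 against 766 CPM at 3 weeks and 2938 against 683 CPM at 2 months. Without the neonatal library both genes passed (adjusted p = 0.00404 and 0.00550, edgeR). Macrophage-like Timp2 was spread over 65.5%, 75.4% and 58.9% of cells in age order and is well above the panel of fibroblast products, which stood at 7.77%, 5.82% and 2.91% of its fibroblast-like level there.

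Against Schwann-like cells, the glia of skin nerves, 6 genes were higher in fibroblast-like cells (Mmp3, Mmp14, Mmp16, Mmp19, Mmp23 and Timp1), with log2 fold changes between 1.41 ± 0.21 for Timp1 (adjusted p = 0.0114, edgeR) and 5.33 ± 0.43 for Mmp3 (adjusted p = 0.00254), where 10.3% of 13641 genes were higher. Timp3 was lower in fibroblast-like cells, by -2.39 ± 0.36 on the log2 scale (adjusted p = 0.0116, edgeR), where 8.27% of genes were lower. Its levels were 75.9, 230 and 329 CPM in fibroblast-like against 910, 1151 and 1564 CPM in Schwann-like cells in age order, and the groups did not overlap. Mmp2, Mmp11 and Timp2 did not pass. Without the 3-week library Timp3 had an adjusted p of 0.0574, and Mmp14, Mmp16, Mmp23 and Timp1 also lost their calls (adjusted p between 0.0643 and 0.113, edgeR), while Mmp11 passed (0.0454). Without the 2-month library Timp1 had an adjusted p of 0.0539, and without the neonatal one Mmp2 and Timp2 passed (0.000324 and 0.00188, edgeR).

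**Figure D3:**
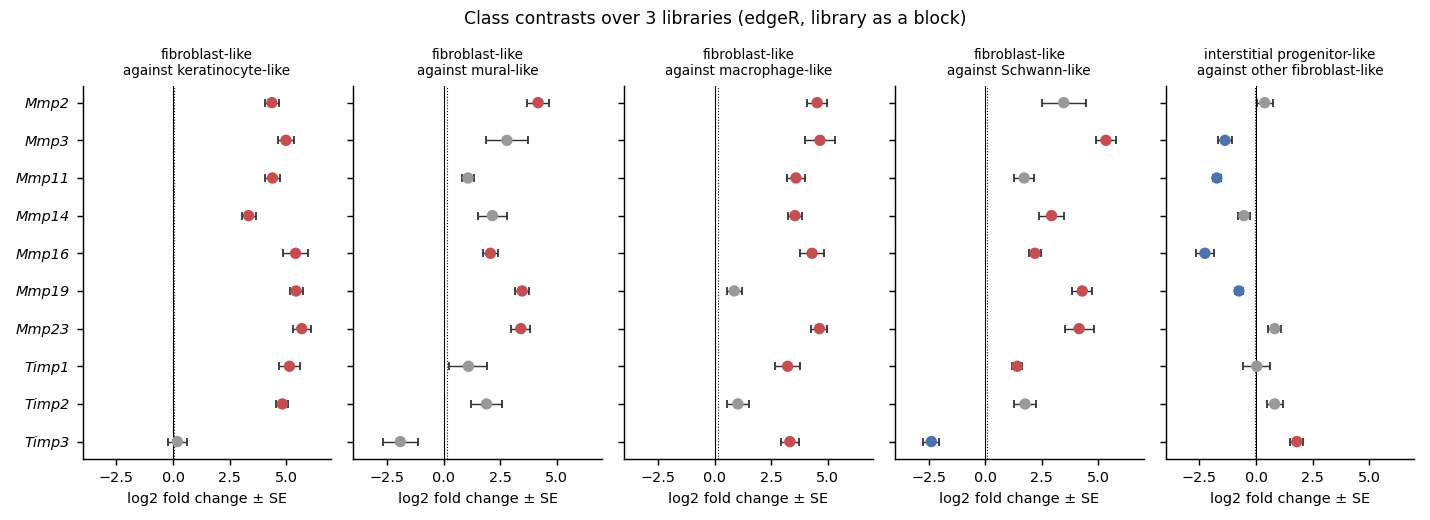
Log2 fold change ± SE (x axis) of the 10 genes (y axis) in 5 class contrasts over 3 libraries, with red dots for genes higher and blue dots for genes lower at an adjusted p under 0.05 in edgeR and grey dots for the rest; the dotted line is the median of all genes tested. Timp3 lies left of the other genes in each contrast with mural-like and Schwann-like cells and right of them in interstitial progenitor-like cells, at 1.80.

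The remaining classes are described without a test. Muscle progenitor-like cells, with 114 neonatal, 124 3-week and 63 2-month cells, had 32.2, 33.3 and 38.1 CPM of Timp1 in age order, against 38.1, 88.6 and 26.4 CPM in fibroblast-like cells. The 2-month value rests on 12 UMIs, and its interval (19.7 to 66.6 CPM) overlaps that of fibroblast-like cells. Endothelial-like cells, which line vessels, held the highest Timp3 level of any class and age with at least 50 cells, 1954 CPM (1892 to 2019) over 115 3-week cells, of which 98.3% had a UMI, and 899 CPM of Timp2. Dendritic/Langerhans-like cells, antigen-presenting cells of the skin, had 85.8 CPM of Mmp14 at 3 weeks and 70.0 CPM at 2 months, seen in 61.5% of 109 and 55.9% of 127 cells. Melanocyte-like cells had 264 CPM of Timp3 at 3 weeks and 356 CPM at 2 months. The 88 erythroid-like cells of the 3-week library held the fibroblast panel at 60.1% of its fibroblast-like level, so their member levels, such as 566 CPM of Mmp2, are not read as their own.

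Schwann-like and mural-like cells were also compared between ages, with 1 library each. In 2-month against neonatal Schwann-like cells Mmp2 had 35.9 against 286 CPM, Mmp14 22.4 against 95.9 CPM and Mmp23 5.42 against 38.7 CPM. With Mmp11, 4 genes were lower, where 19% of 9096 genes were lower, and Mmp3 was past 2-fold the other way, at 12.2 against 0 CPM, where 13.7% were higher. That Mmp3 value is 18 UMIs in 6 of 429 cells, 13 of them in 1 cell, and at 2.2% of the fibroblast-like level it lies below the fibroblast panel (3.45%), so it is read as background. Different clusters hold the class at these ages: 116 of 120 neonatal cells lay in cluster 23, led by Egfl8, Gfra3 and Ntm, and 384 of 429 2-month cells in cluster 15. Neonatal Schwann-like Mmp2 was seen in 68 of 120 cells. In the same cells the fibroblast panel stood at 15.9% of its fibroblast-like level and Mmp2 at 53.3%, against 3.45% and 2.3% at 2 months. In 3-week against neonatal mural-like cells, which differ in cluster 35 as given above, Mmp14 had 58.8 against 193 CPM, Timp1 19.1 against 82.2 CPM, Timp3 508 against 1340 CPM and Mmp11 6.63 against 26.7 CPM, 4 genes lower where 10.6% of 8588 were lower. Mmp2, at 135 against 19.99 CPM, and Mmp3, at 112 against 0 CPM, were higher, where 17% were higher, while the fibroblast panel in mural-like cells stood at 14.3% of its fibroblast-like level at 3 weeks and 5.87% in the neonatal library.

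**Figure D4:**
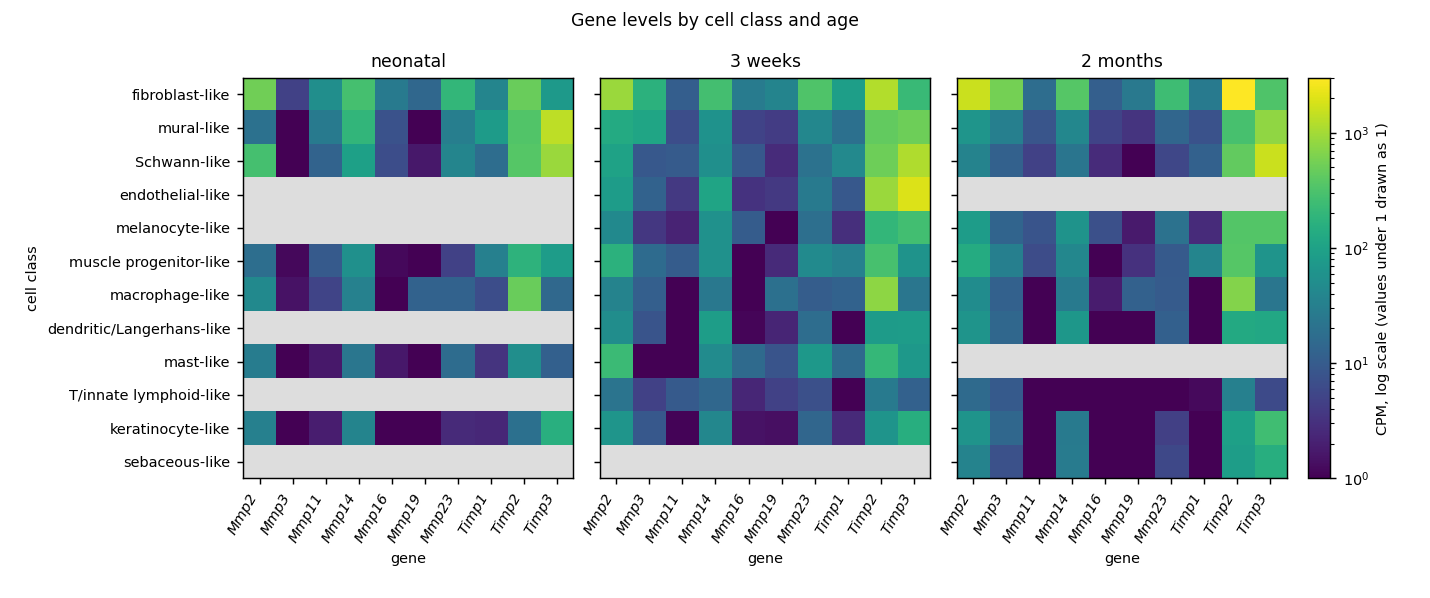
CPM (colour, log scale, values under 1 drawn as 1) of the 10 genes (columns) in named cell classes (rows) at the 3 ages (panels), with grey rows for classes under 50 cells in that library. The erythroid-like and adipocyte-like classes are not drawn. The fibroblast-like row is the brightest for most MMP genes, and Timp3 is brightest in mural-like, Schwann-like and endothelial-like rows.

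Of 17 further MMP and TIMP genes, 1 reached 10 CPM in fibroblast-like cells. Mmp27, a little-studied member of the family, had 11.7 CPM in neonatal, 66.3 CPM in 3-week and 73.5 CPM in 2-month cells. Mmp1a, Mmp1b and Mmp20 had no UMI in any class described. Several of the others had their highest levels in other classes. Mmp9, the second gelatinase, had 207 and 88.2 CPM in dendritic/Langerhans-like cells at 3 weeks and 2 months and 39.9, 15.2 and 107 CPM in macrophage-like cells in age order. Mmp12, the macrophage elastase, had 170 CPM in neonatal, 30.5 CPM in 3-week and 32.1 CPM in 2-month macrophage-like cells. Mmp15 was found in Schwann-like cells at 109, 73.3 and 94.9 CPM and Timp4 in mural-like cells at 19.99, 71.6 and 325 CPM, both in age order.

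Genes around MMP activation, inhibition and clearance and procollagen processing were counted from a list of 19, of which 16 were measured in fibroblast-like cells. In 3-week against neonatal cells 4 were higher, among them Pcolce2 (246 against 7.57 CPM), an enhancer of procollagen processing, Pcolce (2051 against 592 CPM) and Plat (134 against 59.7 CPM), the tissue plasminogen activator. Serpine2, an inhibitor of serine proteases, was lower at 21.1 against 88.4 CPM. Over all genes 8.24% were higher and 11.7% lower. In 2-month against 3-week cells Serpine2 (149 against 21.1 CPM) and Pcolce2 (562 against 246 CPM) were higher. Cd44 (42.2 against 113 CPM), Pcsk5 (24.1 against 61.2 CPM), Tfpi2 (9.76 against 20.6 CPM) and Plaur (22.4 against 46.7 CPM) were lower, where 3.45% of all genes were higher and 3.17% lower.

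In 2-month against neonatal cells 4 of these genes were higher, among them Lrp1 (602 against 212 CPM), an endocytic receptor that clears MMP and TIMP complexes, and Adam17 (43.7 against 17.1 CPM), a sheddase that TIMP3 inhibits. Cd44, Plaur and Pcsk5 were lower. Over all genes 10.8% were higher and 17.1% lower, and the 3 lower of 16 are near that background. Of 8 collagen genes, Col1a1 (54584 against 12718 CPM) and Col1a2 (56681 against 11302 CPM) were higher in 3-week than in neonatal cells, where 8.24% of all genes were higher. Col5a1 (691 against 1492 CPM) was lower in 2-month than in 3-week cells, where 3.17% of all genes were lower.

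The genes whose levels ran most like each member were found by Pearson's r of log2(CPM + 1) over 29 profiles of named classes by library, among 13131 genes. These profiles share libraries and differ in depth, so r is given as a description. They also carry free fibroblast RNA, and the 3-week erythroid-like profile, with the fibroblast panel at 60.1% of its fibroblast-like level, is among them. In keratinocyte-like cells Mmp23 stood at 1.26%, 4.28% and 1.83% of its fibroblast-like level in age order. The panel, which holds Col3a1, stood at 1.91%, 4.48% and 1.73% there. The part of free RNA in r was not tested. Mmp23 ran most like Col3a1 (r = 0.96), Col5a1 (0.93) and Adamts2 (0.92), and Mmp2 most like Olfml3 (0.89), Cpxm1 (0.89) and Col3a1 (0.88). Mmp3 ran most like Aldh1a1 (0.92), Serpina3c (0.90) and Pi16 (0.85). The profiles are class totals, so r does not place genes in the same cells. Pi16 is among the markers of interstitial progenitor-like cells, where Mmp3 was lower than in other fibroblast-like cells, as given above. For Mmp14 the nearest genes were Fkbp9, Kdelr1 and Ckap4 (0.88 to 0.85), for Mmp11 Spon1, Syde1 and Vstm4 (0.89 to 0.84), for Mmp16 Dclk1, Snhg18 and Col6a3 (0.83 to 0.82) and for Mmp19 Dnm1, Mnda and St3gal1 (0.89 to 0.83). Among the inhibitors, Timp1 ran most like Pcdh18, Olfml2b and Fkbp7 (0.89 to 0.88), Timp2 like Cd302, Fcgrt and Laptm4a (0.90 to 0.88) and Timp3 like Caskin2, Wwc2 and Wwtr1 (0.89 to 0.86). Within the 10, the closest pair was Mmp2 and Mmp23 (0.88) and the pair farthest apart Mmp19 and Timp3 (-0.09).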

How the data were processed

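The authors deposited, per the file headers, integer UMI counts per gene and barcode for 3 libraries. The submitters' processing notes name Cell Ranger 3.0.2, Seurat 2.0 and mm10, without roles. Barcodes with at least 300 genes, 500 UMIs and at most 10% mitochondrial UMIs were kept, leaving 7911 of 8452 neonatal, 8900 of 10226 3-week and 9332 of 10190 2-month barcodes. A doublet score then removed 475, 211 and 348 barcodes. In the neonatal library the caller's own threshold marked 0.0253%, so the top 6% by score were removed there. Cells were clustered with scanpy 1.11.5 (2000 variable genes, 30 components, resolution 1). Classes and states were named "-like" from marker lists, so shares may differ from the study's own names. Summed counts were tested with edgeR 4.0.16 (TMM scaling, filterByExpr, adjusted p under 0.05) in R 4.3.3. The library is the block because each library holds both classes compared. DESeq2 1.42.0 was an alternative. The tests were checked on simulated counts, where a larger share of calls was false than the nominal one. All 10 members are named in each comparison of fibroblast-like cells, along with genes of the fixed lists past 2-fold, at most 6 a direction; 1 listed gene is not reported here. The members and lists were chosen with earlier results of these data known.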

Additional observations from a re-analysis of the deposited data

Results flagged for a closer look

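In 4 cases a gene was called higher in fibroblast-like cells and lower in another class over the same pair of ages. The difference between classes was not tested, because each age has 1 library. Timp1 at 3 weeks against neonatal had a log2 ratio of 1.22 in fibroblast-like and -2.11 in mural-like cells, 3.33 apart. Timp3 over the same ages had 1.60 in fibroblast-like and -1.40 in mural-like cells, 3.00 apart. Of the 3-week mural-like cells, 125 of 321 lay in cluster 35, led by Actg2, Cnn1 and Des, which held no neonatal cell. Mmp3 at 2 months against 3 weeks had 1.69 in fibroblast-like and -1.83 in mural-like cells, 3.52 apart, where 5 cells held 97.0% of the 3-week mural-like Mmp3 UMIs. Mmp2 at 2 months against neonatal had 1.54 in fibroblast-like and -2.99 in Schwann-like cells, 4.53 apart. Here 116 of 120 neonatal Schwann-like cells lay in cluster 23 and 384 of 429 2-month ones in cluster 15. The part of this shift between clusters was not tested.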

How the results depend on the processing

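Counts of members higher or lower between ages kept within 1.5 times of the reported count in all but these settings. At 2 months against neonatal the lower count was 1 with TMM scaling, 1 with at most 5% mitochondrial UMIs and 0 with gated cells. At 2 months against 3 weeks the higher count was 4 with gated cells. The ratios of single members shifted more often than these counts. Under the alternative settings 148 member age ratios were marked as moved and 122 as the same, with 28 moved for gated cells and 26 for TMM scaling. All 60 shares of cells were marked as moved. The printed ratios and shares thus hold for the main setting, and their intervals do not cover the choice of processing.

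In the class contrasts, leaving out each library gave 2694 to 8353 genes called against keratinocyte-like cells (6830 with all libraries) and 2937 to 5174 against macrophage-like cells (4438). Against mural-like cells it gave 157 to 3710 (1840), with 0 to 8 members higher and 0 to 1 lower. Against Schwann-like cells it gave 779 to 4577 (2530), with 3 to 8 members higher and 0 to 1 lower. For interstitial progenitor-like cells it gave 978 to 2098 (1879), with 0 to 1 members higher and 1 to 3 lower. DESeq2 called 2784 genes against mural-like cells, with 8 members higher and 1 lower, and 2 members higher in interstitial progenitor-like cells.

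With no replicate block, 1077 genes were called against mural-like cells, 0 members were lower against Schwann-like cells, and 605 genes were called in interstitial progenitor-like cells, with 0 members higher and 0 lower. Other counts without the block stayed within 1.5 times. Of 470 single-member tests under an alternative, 413 kept their side of the threshold, 29 gained it and 28 lost it. No called member changed sign. Timp3 against keratinocyte-like cells, not called at 0.19, did so (-0.16 and -0.08 without the 3-week and 2-month libraries). The cause of each shift was not tested. With 1 library per age, no age could be left out of a comparison of ages. Genes near 10 CPM, such as Mmp16 at 2 months, rest on few UMIs per cell.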
